A study of Mus musculus with 4 samples.

Results

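Transcripts of 9 enzymes that break down glycogen and glucose in skeletal muscle were compared between the synaptic and the non-synaptic region of the mouse diaphragm. The enzymes were chosen by gene symbol, and are 9 of the 18193 genes with a probe set of their own. Pygm, Hk2, Pfkm, Aldoa, Tpi1, Pgam2, Eno3, Ldha and Gpd1 had 18 probe sets among the 45101 on the array, and Gpi1, the tenth gene of the set, had no probe set under that symbol in the annotation used and was not analysed here. The tissue was the left hemi-diaphragm, the main muscle of breathing, whose motor nerve contacts the fibres in a band across the muscle. Total RNA of the synaptic region was measured on 2 one-colour arrays and that of the non-synaptic region on 2 more. Strain, age, sex and the number of animals are not in the labels, and no treatment or altered gene is named, so it is not known whether a region's arrays stand for different animals. The p-values rest on the spread among arrays alone, and that spread may be technical. For each probe set it was pooled with the spread of others of like intensity. The arrays are named here by the number that ends their titles, as synaptic 1 and 2 and non-synaptic 1 and 2.

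Muscle fibres store glucose as glycogen, and glycogen phosphorylase releases it as glucose phosphate when the fibre contracts. The glycolytic enzymes turn this into pyruvate, and lactate dehydrogenase turns pyruvate into lactate, which lets ATP production go on when oxygen supply lags behind demand. Several of the steps are run in muscle by an isozyme of its own, encoded by Pygm, Pfkm, Pgam2 or Eno3. Fast fibres rely on the pathway more than slow fibres do, and the diaphragm holds both.

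None of the 9 enzymes passed the test between the regions. On the 4 arrays, 8 of the 9 had log2 differences, synaptic minus non-synaptic, between -0.15 and 0.10, with 95% intervals that stayed within -0.50 and 0.57, or 0.705-fold to 1.48-fold. Gpd1, the enzyme that links glycolysis to glycerol phosphate, had a difference of -0.32 ± 0.24 (SE), which did not pass the test either. By limma, 0 of the 17 probe sets bright enough to be tested passed an adjusted p under 0.05 in either direction, where 0.00378% of all 26480 tested probe sets passed as higher and 0.00755% as lower. At an unadjusted p under 0.05 the enzymes' count was also 0, against 0.653% higher and 0.332% lower over all probe sets, and the smallest unadjusted p among the enzymes was 0.232. This fit leaves out the number in the titles, so a difference between numbers that both regions share widens its standard errors. With the number as a block, 2.62% of all tested probe sets were higher and 3.65% lower at that threshold. Of the 9 enzymes 1, Gpd1, was then under it, lower in the synaptic region (limma unadjusted p = 0.0132, adjusted p = 0.622). The median difference over the 9 enzymes was -0.06, and over all tested probe sets -0.01.

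The 4 arrays had been scaled to a common level, with a trimmed mean intensity of 2500 on each, and their median intensities ran from 658 to 769. The muscle markers Ckm, Acta1, Mb, Des and Ttn were bright on every array, and their log2 differences between regions lay between -0.01 and 0.08. The labels of the regions were borne out by Chrna1, a subunit of the muscle acetylcholine receptor. Its log2 intensities were 13.24 and 13.08 in the synaptic and 11.20 and 11.19 in the non-synaptic region. Of 4 tested genes of the fibre's synaptic region, Chrna1 included, 3 had both synaptic arrays above both others and 1 overlapped. Their differences ran from 0.28 to 3.11, and 0 passed the adjusted test. Markers of other cells differed with the region as well. The summed intensity of 7 tested Schwann cell markers was 105426 and 114302 in the synaptic arrays against 30487 and 32417. That of 7 tested fat cell markers was 135832 and 133226 against 179834 and 190930. A sum follows its brightest genes. The log2 differences of these 7 fat cell markers ran from -5.43 to -0.12, with a median of -1.50. In pieces of tissue, fewer cells of a type and less RNA per cell cannot be told apart.

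The stretches before the start sites of Pgam2 and Ldha are shown as examples of a muscle motif and of a motif of metabolic genes. They were chosen for those motifs. RefSeq windows of assembly GRCm38.p6, from 250 bases before to 50 after a start site, were given for 9 of the 10 genes, all but Gpd1. Capitals mark the matches, to the MEF2 consensus in Pgam2 and to ACGTG on either strand in Ldha, and only the bases before the start site are printed, 5′ to 3′ on the gene's strand. Pgam2 lies on the minus strand at chr11:5803797-5804046 and Ldha on the plus strand at chr7:46845554-46845803.
Pgam2: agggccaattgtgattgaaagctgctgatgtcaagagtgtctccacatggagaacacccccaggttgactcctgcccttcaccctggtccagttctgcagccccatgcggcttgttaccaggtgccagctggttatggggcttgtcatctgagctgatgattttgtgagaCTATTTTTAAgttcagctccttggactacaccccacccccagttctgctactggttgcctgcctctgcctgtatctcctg
Ldha: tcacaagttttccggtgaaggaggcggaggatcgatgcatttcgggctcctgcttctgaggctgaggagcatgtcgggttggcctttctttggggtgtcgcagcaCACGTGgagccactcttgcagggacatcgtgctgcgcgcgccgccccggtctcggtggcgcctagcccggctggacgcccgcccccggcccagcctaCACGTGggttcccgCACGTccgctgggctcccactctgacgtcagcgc
MEF2 factors bind the first motif in muscle genes, and ACGTG lies in the core that hypoxia-inducible factors bind. The MEF2 consensus, searched on both strands, was found at position -80 of Pgam2 and in 1 of the 15 windows of these genes, against 3.19% of all 32851 windows. ACGTG was found in 7 of the 15 windows, in Aldoa, Hk2, Ldha, Pfkm and Pygm, against 19.6% of all windows. The 5 matches in Ldha include both strands of each CACGTG, which also matches CANNTG, the general E-box pattern. Myogenic factors bind E-boxes, but a match to this pattern does not tell which factor would bind. CANNTG was present in 13 of the 15 windows and in 72.3% of all, and TATAAA in 0 of the 15 and in 13.6% of all. Ldha has a second window, with 0 matches to ACGTG. Aldoa and Pfkm have 3 and 4 windows, some of which share bases. A match describes these letters in this window only.

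Pygm, of glycogen breakdown, and Hk2, of glucose entry into the path, gave overlapping values in the regions. Pygm encodes muscle glycogen phosphorylase, which cuts glucose units from glycogen. Its intensity was 92742 and 72847 on synaptic arrays 1 and 2 and 82044 and 78300 on non-synaptic arrays 1 and 2. Both non-synaptic values lay between the synaptic ones, so the regions overlapped, and the log2 difference was 0.04 ± 0.17 (SE, 2 arrays in each region, limma adjusted p = 0.9999). Hk2, the hexokinase of insulin-responsive tissues, traps glucose from the blood as glucose phosphate. It read 43149 and 38629 in the synaptic and 41263 and 41368 in the non-synaptic region, again with the non-synaptic pair inside the synaptic range. The difference of Hk2 was -0.02 ± 0.15. The signs of these small values, and of those of Pfkm and Aldoa, turned under another scaling or without 1 array.

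**Figure D1:**
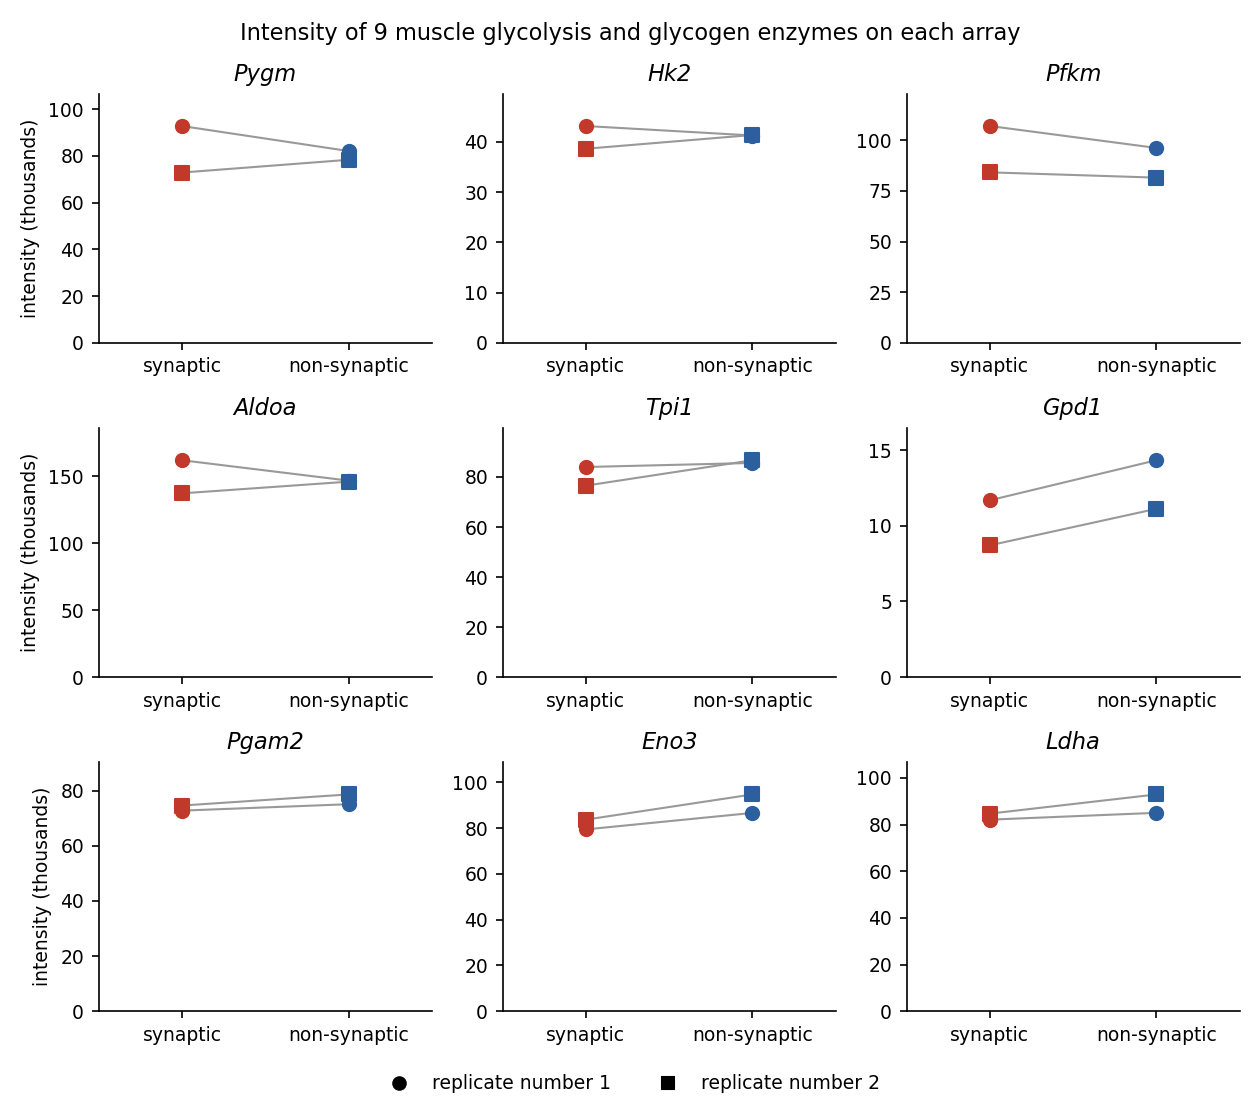
Intensity (linear vertical axis from 0, with its own scale per panel) of the brightest probe set of each of 9 enzymes on the synaptic (red) and non-synaptic (blue) arrays. Circles are arrays with the number 1, squares those with the number 2, and grey lines join arrays with the same number. Pgam2, Eno3, Ldha and Tpi1 have both synaptic arrays below both non-synaptic ones by small amounts, and Gpd1 is lower in the synaptic region within each number while the regions overlap.

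The upper steps of glycolysis differed as little. Pfkm, the muscle phosphofructokinase that commits sugar to glycolysis, had intensities of 107066 and 84197 in the synaptic and 96238 and 81585 in the non-synaptic region. On both arrays numbered 1 it was brighter than on both arrays numbered 2, so the numbers separated where the regions did not, and the region difference was 0.10 ± 0.18. Aldoa, the aldolase that splits the sugar, was the brightest of the enzymes, at 161785 and 137066 against 146579 and 145796. The difference of Aldoa was 0.03 ± 0.14 on this probe set and from -0.07 to 0.08 over its 5, all of a type whose probes may also match other transcripts. Tpi1, which interconverts the products of aldolase, read 83995 and 76539 against 85615 and 86704. Both synaptic arrays lay below both others, by 0.10 ± 0.14, on this probe set, which is of the same type as those of Aldoa. The regions overlapped on the other probe sets of Tpi1, with differences of -0.01 and -0.10.

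Pgam2, Eno3 and Ldha, enzymes of the lower steps, read slightly lower on both synaptic arrays than on both others, and none of the 3 passed the test. Pgk1 and Pkm, also of the lower steps, had overlapping regions on their brightest probe sets. Pgam2, the muscle phosphoglycerate mutase, read 72759 and 74605 in the synaptic region and 75088 and 78637 in the non-synaptic region. Its difference of -0.06 ± 0.13, interval -0.40 to 0.28, was the closest to 0 of the enzymes whose regions did not overlap. Eno3, the muscle enolase, read 79404 and 83671 against 86602 and 94674. The gap between the regions was wider for Eno3 than for Pgam2, at -0.15 ± 0.14 (interval -0.50 to 0.20). Ldha, the muscle form of lactate dehydrogenase, read 82094 and 84691 against 85030 and 92909. The highest synaptic and the lowest non-synaptic array of Ldha were almost level, and the difference was -0.09 ± 0.14 (interval -0.44 to 0.26). With Tpi1, both synaptic arrays were thus below both non-synaptic arrays for 4 of the 9 enzymes, and above for 0, where 9.98% and 9.89% of all tested probe sets did so. Counted over all 17 tested probe sets of the enzymes it was also 4. Within both numbers the synaptic array was the lower one for 5 of the 9 enzymes, these 4 and Gpd1, and the higher one for Pfkm, while the other 3 went opposite ways, against 27.4%, 23.8% and 48.8% of all tested probe sets. These 4 differences, from -0.15 to -0.06, were no larger than about 1 moderated standard error each, and the limma adjusted p of each was 0.9999.

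Gpd1, the cytosolic glycerol phosphate dehydrogenase, had the widest region difference of the 9. The enzyme passes electrons from glycolysis to mitochondria in muscle and makes the glycerol backbone of fat in fat cells. Its brightest probe set read 11691 and 8713 in the synaptic and 14340 and 11128 in the non-synaptic region. The regions overlapped, since synaptic array 1 exceeded non-synaptic array 2, but within each number the synaptic array was lower, by 0.29 between the arrays numbered 1 and by 0.35 between those numbered 2. The difference over all arrays was -0.32 ± 0.24 (limma unadjusted p = 0.232, adjusted p = 0.9999), with an interval from -0.93 to 0.29 that spans 0.524-fold to 1.22-fold. A second probe set read 1842 and 5520 against 3595 and 7392, lower in the synaptic region within each number as well, at -0.69 ± 0.62. The third read 2241 and 1710 against 2528 and 1514 and differed by 0.001 ± 0.34. It is of the type whose probes may also match other transcripts. The fourth lay below the floor on every array, at intensities from 57 to 148, and was not tested.

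Fat cell markers read lower on the synaptic arrays, as Gpd1 did within each number on its brightest probe set. The Gpd1 probe set with a difference of -0.69 was also lower within each number. That with a difference of 0.001 went opposite ways, at -0.17 between the arrays numbered 1 and 0.18 between those numbered 2. All 7 adipocyte genes bright enough to be tested had a negative log2 difference, with a median of -1.50, and for 6 of the 7 both synaptic arrays lay below both others. Adipoq, the fat cell hormone adiponectin, had log2 intensities of 7.54 and 7.56, just above the floor of 7.31, in the synaptic region and 13.14 and 12.82 in the non-synaptic region, and it was 1 of the 2 probe sets of the whole array that fell (limma adjusted p = 0.0326). Leptin, encoded by Lep, was at the floor on 3 arrays and at 8.12 on non-synaptic array 2, and was not tested. The other 8 enzymes had differences from -0.15 to 0.10. The part of fat cell RNA in the difference of Gpd1 was not tested. Gpd1l, the related gene, read 12773 and 10989 against 12977 and 11225, a difference of -0.03 ± 0.19, and -0.39 ± 0.59 on its other probe set. Gpd2, the mitochondrial partner that takes electrons from the product of Gpd1, read 2659 and 3241 against 2877 and 4583 and differed by -0.31 ± 0.30, with -0.32 ± 0.33 and -0.46 ± 0.35 on its other probe sets, none past the test.

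**Figure D2:**
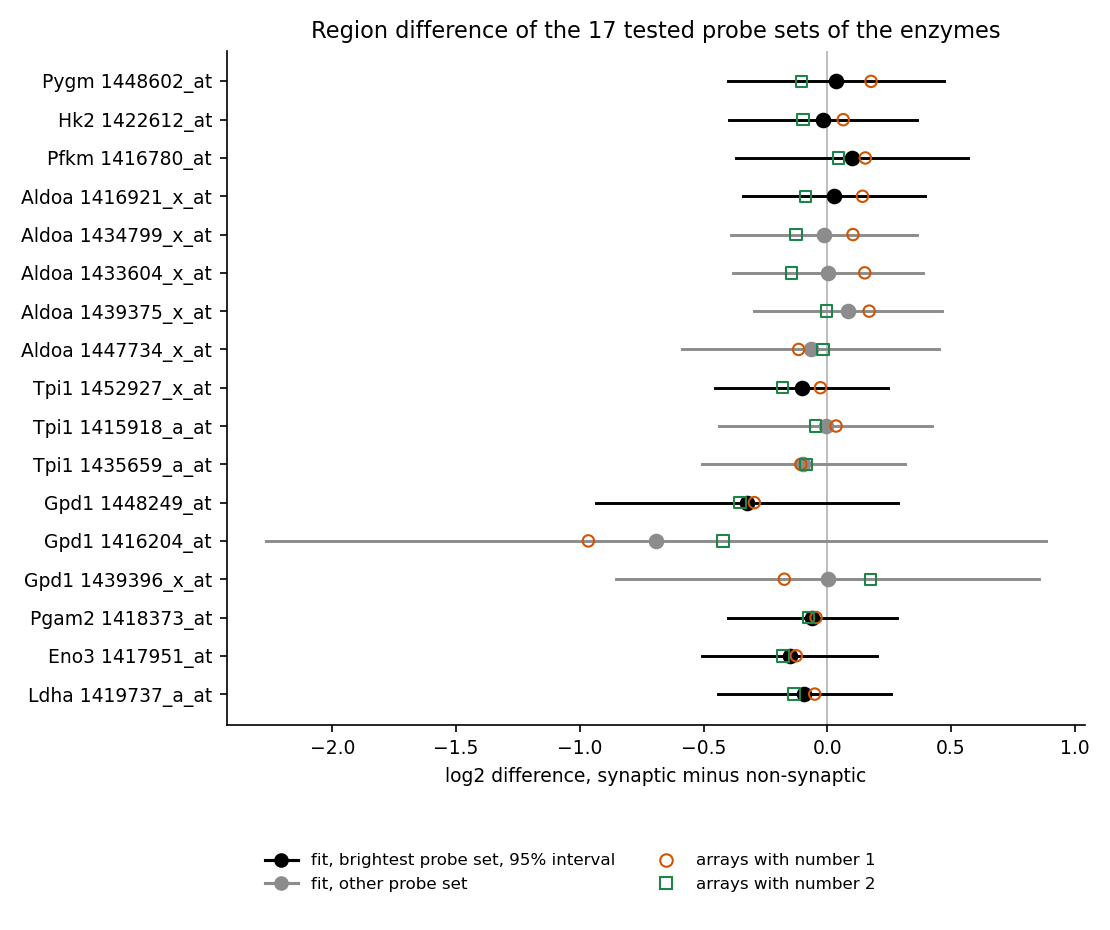
Log2 difference, synaptic minus non-synaptic (horizontal axis), of the 17 tested probe sets. Filled points with lines are the limma fit with its 95% interval, black for the brightest probe set of a gene and grey for others, and open circles and squares are the differences between the arrays numbered 1 and between those numbered 2. Every interval includes 0, and the widest are those of Gpd1, the dimmest of the enzymes.

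By signal, the enzymes other than Gpd1 sat near the top of the array. Between 0.0421% (Aldoa) and 1.69% (Hk2) of all probe sets were brighter than the brightest probe set of each, and 6.97% were brighter than that of Gpd1. The maximum of any probe set was 202114 and 176623 on synaptic arrays 1 and 2 and 172807 and 198758 on the non-synaptic ones. Whether differences between regions are compressed at signals this close to the maximum was not tested. In the synaptic region the mean intensity ran from 149426 ± 17479 (SD, n = 2) for Aldoa through 95631 ± 16171 for Pfkm, 83392 ± 1837 for Ldha and 82794 ± 14068 for Pygm to 40889 ± 3196 for Hk2 and 10202 ± 2106 for Gpd1. Probe sets differ in how strongly they bind their target, so this is an order of signals and not of transcript amounts. In the non-synaptic region Aldoa was again highest, at 146187 ± 554, and Gpd1 lowest, at 12734 ± 2271. Synaptic array 1 was brighter than synaptic array 2 for 13 of the 17 probe sets, and those of Pgam2, Eno3 and Ldha and the second of Gpd1 were the reverse. The median absolute log2 difference of the 9 enzymes was 0.16 between the synaptic arrays and 0.07 between the non-synaptic arrays, against 0.351 and 0.298 over all tested probe sets, and the median standard error was 0.14 against 0.29.

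The isozymes known from other tissues were compared with their muscle partners, from a list chosen with earlier results of these data known. Ldhb, the heart form of lactate dehydrogenase, read 90602 and 72360 in the synaptic and 76143 and 70658 in the non-synaptic region, a difference of 0.14 ± 0.17. Its 4 probe sets gave 0.07 to 0.18, where Ldha gave -0.09. Pgam1, the mutase of most other tissues, differed by -0.30 ± 0.30, from intensities of 3613 and 5410 against 4642 and 6409, values that differed more between numbers than between regions. Hk1, the hexokinase of brain and red cells, read 4921 and 5285 against 4398 and 5133, or 0.10 ± 0.20, and its other tested probe set had the opposite sign, at -0.48 ± 0.78. The brain and liver phosphorylases Pygb and Pygl differed by -0.16 ± 0.24 and -0.47 ± 0.25, and for Pygl both synaptic arrays (1237 and 1022) were below both others (1511 and 1612). Aldoc, the aldolase known from brain, was brighter on both synaptic arrays, at 743 and 1080 against 542 and 663, a difference of 0.58 ± 0.35. Its other probe set read lower on the synaptic arrays, at 38.8 and 20.4 against 193 and 59.9, at or near the floor, and was not tested. The liver and platelet phosphofructokinases Pfkl and Pfkp differed by 0.02 ± 0.33 and -0.27 ± 0.29. The other probe sets of Pfkl gave -0.14 ± 0.23 and 0.24 ± 0.32, and that of Pfkp gave -0.53 ± 0.39. Eno2, the enolase of neurons, read between 342 and 476 and lay below the filter, and Eno1 was not analysed here. None of these passed the limma test (adjusted p = 0.9999 for each that was tested).

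Of the 45 other genes of the pathway, 40 had a probe set of their own and 39 were tested. By limma 0 rose and 0 fell at an adjusted p under 0.05, and the count at an unadjusted p under 0.05 was 0 in each direction as well. The median difference was -0.05, with 26 genes below 0 and 13 above. Pgk1, Pkm and Pgm1, which fill the steps between the enzymes described, differed by -0.005 ± 0.20, -0.03 ± 0.17 and -0.10 ± 0.15. The other probe sets of Pgk1 gave -0.10 ± 0.14, with the regions overlapping, and -0.29 ± 0.17, with both synaptic arrays below both others, and the other one of Pgm1 gave -0.06 ± 0.27. Gapdh was read only from control probe sets outside the test, whose middle one read 150101 and 134901 against 139297 and 149731, with the regions overlapping. Slc2a4, the insulin-dependent glucose transporter of muscle and fat, read 47463 and 27907 against 45181 and 29183, a difference of 0.003 ± 0.34. Its other probe set gave -0.47 ± 0.33, lower in the synaptic region within both numbers, with the regions overlapping.

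The pathway genes with the smallest unadjusted p outside those groups were Slc16a3, Slc2a1, Phka1 and Bpgm. Slc2a1, the glucose transporter of barrier cells and red cells, was brighter on both synaptic arrays, at 2890 and 2238 against 2174 and 1594, a difference of 0.45 ± 0.28 (limma unadjusted p = 0.162). Its other probe sets gave 0.85 ± 0.36 and 0.50 ± 0.31, each with the regions apart. The tested Schwann cell markers were higher on the same arrays, with 7 of 7 apart, and their part in the values of Slc2a1 was not tested. Slc16a3, the transporter that exports lactate from glycolytic fibres, read 1871 and 1502 against 2391 and 2085, a difference of -0.41 ± 0.24 with the regions apart. Phka1, a muscle regulatory subunit of phosphorylase kinase, which activates Pygm, differed by -0.51 ± 0.33, with -0.39 ± 0.20 and -0.06 ± 0.26 on its other probe sets. Bpgm, the bisphosphoglycerate mutase of red cells, differed by -0.34 ± 0.26, and by -0.56 ± 0.31, with the regions apart, and -0.66 ± 0.44 on its other probe sets.

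**Figure D3:**
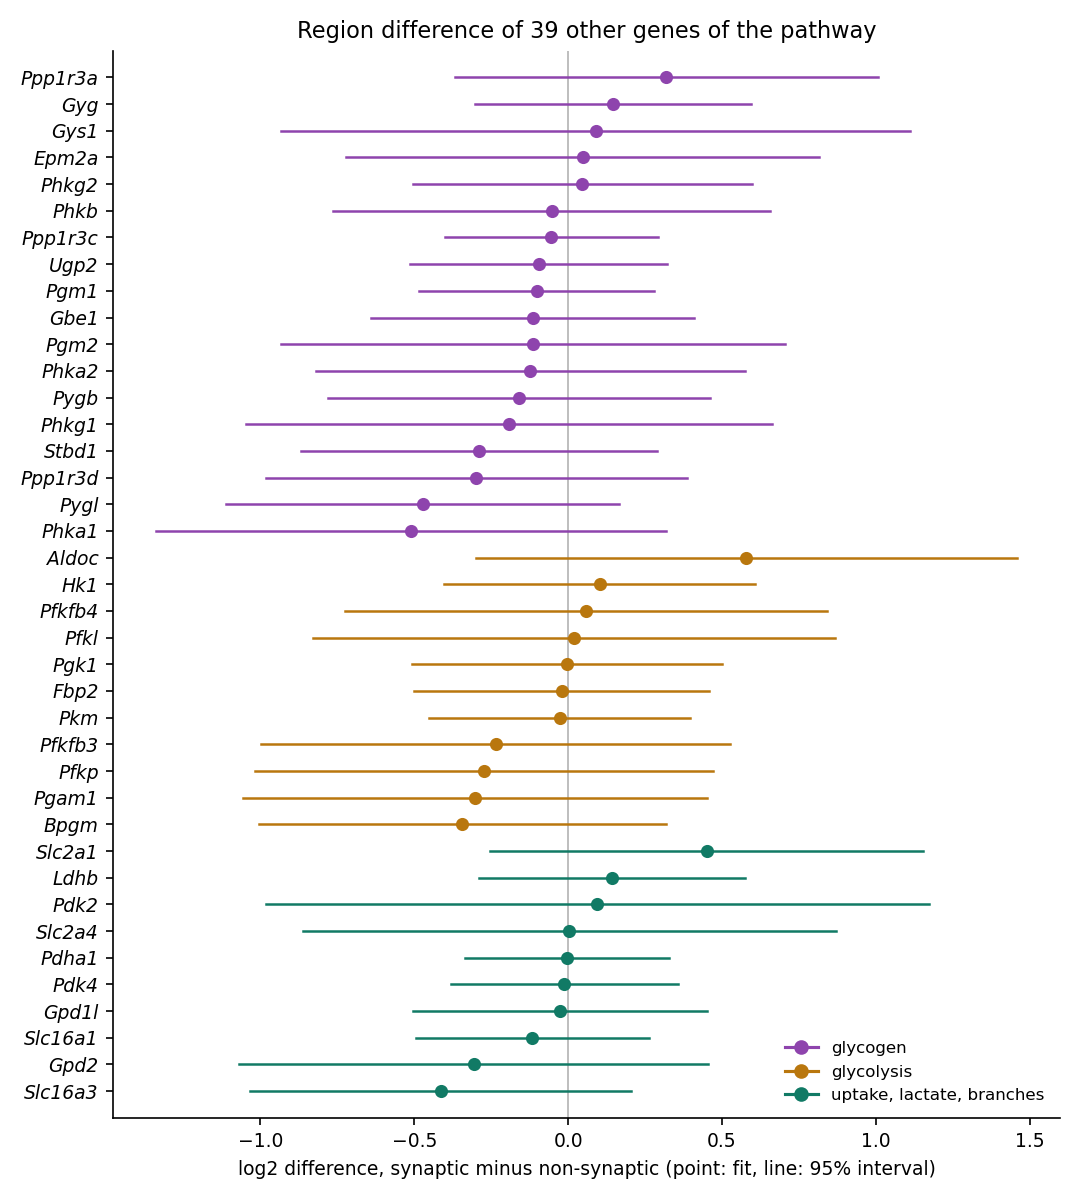
Log2 difference, synaptic minus non-synaptic (horizontal axis), of 39 other genes of glycogen metabolism (purple), glycolysis (brown) and glucose uptake, lactate transport and side branches (green), each from its brightest probe set. Points are the limma fit and lines its 95% interval. All intervals include 0, and Aldoc and Slc2a1 have the highest values while Phka1 and Pygl have the lowest.

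Fibre type genes are given beside the enzymes because fast and slow fibres use glycolysis to different degrees. The 12 fast fibre genes had a median difference of 0.04 and the 9 slow fibre genes of 0.02. Myh4, the myosin of the fastest and most glycolytic fibres, had log2 intensities of 14.97 and 15.30 in the synaptic and 16.39 and 16.52 in the non-synaptic region, a difference of -1.32 ± 0.18 that did not pass over all probe sets (limma adjusted p = 0.492). Mybpc2 and Actn3, also of fast fibres, differed by -0.58 ± 0.19 and -0.18 ± 0.14 with the regions apart, while the fast myosins Myh1 and Myh2 differed by 0.09 and 0.15. The other probe sets of Myh1 had the opposite sign, at -0.06 ± 0.14 and -0.19 ± 0.68. Whether the small negative values of Eno3, Ldha, Pgam2 and Tpi1 move with Myh4 was not tested.

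Probe sets of the same gene disagreed in how the arrays numbered 1 and 2 differed. Gpd1 was the clearest case among the enzymes. From synaptic array 1 to synaptic array 2 its brightest probe set went from 11691 to 8713, a log2 difference of -0.42, and its second from 1842 to 5520, a difference of 1.58. The non-synaptic arrays showed the same opposition, with -0.37 and 1.04. By contrast the 5 probe sets of Aldoa gave -0.28 to -0.24 between the synaptic arrays, and the 3 of Tpi1 gave -0.28 to -0.13. Among 24 pathway genes with more than 1 tested probe set, the enzymes included, the probe sets spanned more than 1 log2 unit between the synaptic arrays in 10. In Ppp1r3c, a glycogen-targeting subunit of a phosphatase, 1 probe set went from 3669 to 27705 while the brighter one stayed at 65086 and 65946. Pdha1, a subunit of pyruvate dehydrogenase, had 1 probe set at 12251 and 54249 and the other at 108961 and 104919. Gys1, muscle glycogen synthase, had 1 that dropped from 46228 to 24591 and another that went from 3247 to 7516. For the Gapdh control, the 3′ signal over the 5′ signal, a sign of RNA quality, was 1.03 on synaptic array 1 and between 0.814 and 0.853 on the other arrays. Its part in these values was not tested.

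**Figure D4:**
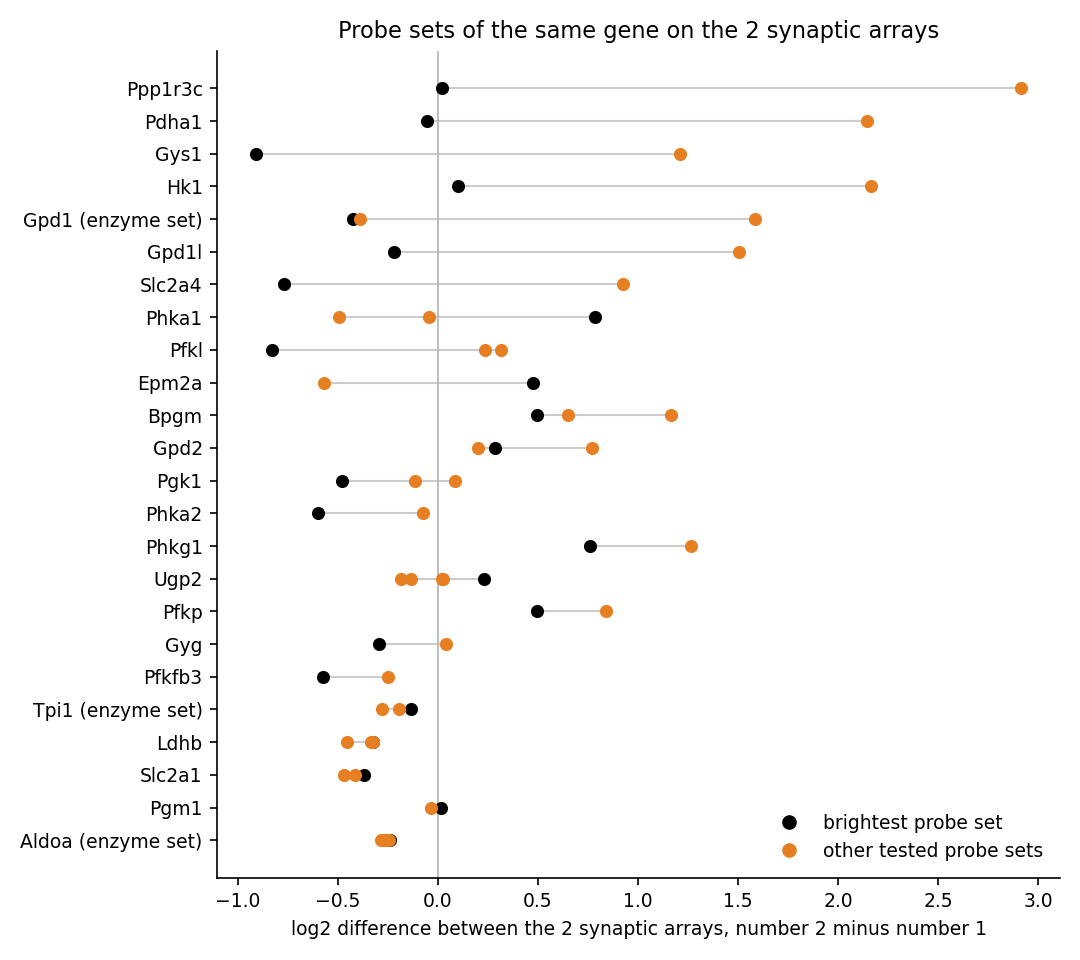
Log2 difference between the 2 synaptic arrays, number 2 minus number 1 (horizontal axis), for each tested probe set of 24 genes that have more than 1. Black points are the brightest probe set of a gene and orange points the others, and grey lines span the gene. The probe sets of Aldoa and Tpi1 lie close together, and those of Gpd1 lie 2.01 log2 units apart.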

How the data were processed

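The deposited values are linear intensities, 1 per probe set, of which 64 of 45101 are controls. How the authors scanned, summarised and scaled them is not given in the sources used here. Their scaling was kept, and it would hide a shift common to most genes. Each intensity under 158.891, the 20th percentile of all values, was set to that floor before taking log2. Controls and probe sets with a mean log2 below 8.87, the 40th percentile, were left out, which left 26480. Synaptic and non-synaptic arrays were then fitted with limma (version 3.58.1, R 4.3.3, lmFit and eBayes with an intensity trend, prior degrees of freedom 3.16 beside 2 residual ones). P-values are 2-sided with Benjamini-Hochberg adjustment over all 26480 and a threshold of 0.05. Standard errors are moderated, so each also draws on the spread of other probe sets of like intensity. With 2 arrays a region, their number limits the precision.

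Symbols came from the platform annotation, updated through Entrez identifiers with RefSeq tables of GRCm38.p6 (34754 of 34958 probe sets with 1 gene). A gene was read from its probe set with the highest mean. All probe sets of the enzymes are reported. Of the other pathway genes, the isozymes, the enzymes completing the path, Slc2a4, Gpd2 and the 4 with the smallest unadjusted p are named, and Ppp1r3c, Pdha1 and Gys1 were chosen after their values were seen. The members and lists were chosen with earlier results of these data known. The alternatives tried were 2 other scalings (quantile and median), changed filters, floors and priors, an unadjusted threshold, the mean of a gene's probe sets, the replicate number as a block and leaving out each array.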

Additional observations from a re-analysis of the deposited data

How the results depend on the processing

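In every alternative run, 0 of the enzymes' tested probe sets and 0 of the other pathway genes passed the adjusted threshold. The differences of Tpi1, Pgam2, Eno3, Ldha and Gpd1 stayed negative in all alternatives run, with Gpd1 from -0.54 to -0.11. The sign of 4 small differences changed. Pygm became -0.0039 and Aldoa -0.0218 with quantile normalization, and Hk2 became 0.0023 with median centring. Leaving out 1 array, Pygm ranged from -0.14 to 0.21, Hk2 from -0.097 to 0.0627, Pfkm from -0.0737 (without synaptic array 1) to 0.273 and Aldoa from -0.0929 to 0.146. Over all probe sets the higher count of 1 became 6 with median centring, 3 with the filter at the 60th percentile, and 0 with no filter, no trend or a floor at the 40th percentile. The lower count of 2 became 0 in the last 3. Without 1 array the counts ran from 0 to 6 higher and from 0 to 5 lower. The cause was not tested.

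Titles give both regions the numbers 1 and 2 without saying what they mark. Across 26480 probe sets, deviations from the region means correlated at 0.63 between arrays with the same number. With the replicate block, 56 probe sets were higher (0.211%) and 18 lower (0.068%), 0 of them of the enzymes. At an unadjusted p under 0.05, 2.62% were higher and 3.65% lower, and Gpd1 was lower with unadjusted limma p of 0.0132 and 0.00139 on its brightest and second probe sets (adjusted p = 0.622 and 0.258). Of the 39 other pathway genes, 5 had an unadjusted p under 0.05 with the block (Phka1, Pgam1, Bpgm and Slc16a3 lower, Slc2a1 higher), against 0 without it. Myh4 passed with the block, at adjusted p of 0.00117 and 0.00447 on its 2 probe sets.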
